A study of Danio rerio with 4 samples.

Results

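In sorted cardiac endothelial cells, 41 genes were well counted in both libraries of the DNK group and nearly or wholly without reads in both libraries of the CtrlK group. The genes were chosen by these counts: a gene entered when it had at least 50 read counts in each DNK library and at most 3 in each CtrlK library. Of 32520 genes in the annotation, 46 met both limits, and 5 of these (*mhc1uba*, *mhc2dab*, *kcng1*, *btr07* and *ftr60*) were set aside. The 41 genes made up 0.329% of the 12464 genes with at least 50 counts in both DNK libraries. The opposite limits chose 52 genes that were present in the CtrlK libraries only.

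The libraries came from adult zebrafish hearts at 7 days post-amputation (dpa) of the ventricle. Fish of both groups carried the *kdrl-eGFP* reporter and the transgene *ubi:loxp-DsRed-STOP-loxp-DN-xBrg1*, and all were treated with 4-hydroxytamoxifen (4-HT). Each group had 2 libraries. The DNK fish additionally carried *kdrl:CreER*, a recombinase that 4-HT switches on in cells with an active *kdrl* promoter, so that a dominant-negative form of *Xenopus* Brg1 was made in endothelial cells, including the endocardium. Cells positive for eGFP under the same promoter were sorted from the ventricles of about 15 pooled hearts, so a library stands for a pool of fish and not for 1 animal, and the pools of the CtrlK and DNK groups were different fish.

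Brg1 is the ATPase of the SWI/SNF chromatin remodeling complexes, which slide or evict nucleosomes and thereby take part in both activation and repression of genes. A dominant-negative form occupies the complex without driving it. In the adult zebrafish heart, the endothelium and endocardium respond to amputation of the ventricle while the muscle regrows. Lectin receptors, zinc finger proteins and cytochromes P450, which recur among the genes described here or in the rows around them, are encoded in zebrafish by clusters of similar copies.

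Total counts per library lay between 25189862 and 28770727. A count of 3 was worth 0.103 to 0.126 CPM, the count divided by the TMM-adjusted library size. Endothelial markers were abundant in all 4 libraries. *kdrl*, whose promoter drove the sorted reporter, had 22782 and 28519 counts in CtrlK and 19725 and 19779 in DNK and was called lower, as were *sox18* and *egfl7*, while *flt1* was called higher and *cdh5* (18930 to 26099 counts) was not called. The 10 endothelial markers found took 0.464% and 0.512% of counts in the CtrlK libraries and 0.438% and 0.445% in the DNK libraries. Cardiomyocyte markers took 1.76% and 0.611% in the CtrlK libraries and 0.223% and 0.0746% in the DNK libraries. The libraries of each group lay far apart, and of 12 tested rows 0 were called higher and 0 lower. Of the tested markers of other cells, 4 of 9 for leukocytes and 3 of 5 for thrombocytes were called lower, and 3 of 5 for fibroblasts were called higher. Among further lists, 1 of 6 for erythrocytes, 1 of 6 for epicardium and 1 of 5 for mural cells were called lower. Epicardial markers took 0.821% and 0.992% of counts in CtrlK and 0.792% and 0.824% in DNK. Of 4 endocardial markers 0 were called, with 0.695% and 0.757% in CtrlK and 0.841% and 0.833% in DNK. The liver marker *f7* (1 and 5 against 86 and 91 counts) was called higher. The thrombocyte marker *fn1b* was called higher. Of 7 tested markers of T and NK cells, *zap70* (0 and 0 against 21 and 85 counts) was called higher and *cd4-1* lower. Over all 17151 genes tested, 4.22% were called higher and 4.23% lower. Whether these differences take part in the results was not tested. No member of the cardiomyocyte, erythrocyte, leukocyte or thrombocyte lists was among the 41 genes. Apart from *lyz*, with 0 counts throughout, the markers found on these lists had more than 3 counts in a CtrlK library. The limits thus kept them out, and nothing is read from their absence. The skeletal muscle and lens lists each held 1 of the 41 genes, *mybpc2b* and *cryaa*. The Xenopus transgene is not a gene of the zebrafish annotation and was therefore not measured. The endogenous *smarca4a*, the zebrafish *brg1* gene, had 621 and 756 counts in the CtrlK libraries and 1153 and 798 in the DNK libraries, a log2 difference of 0.40 (SE 0.20, adjusted p = 0.271, edgeR quasi-likelihood test).

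Together the 41 genes had 17 and 15 counts in CtrlK1 and CtrlK2 and 10081 and 8224 counts in DNK1 and DNK2, which was 0.0358% and 0.0309% of the DNK libraries. The counts of single genes ran from 52 to 1271 in DNK1, with a median of 148, and from 50 to 865 in DNK2, with a median of 140. In the CtrlK libraries, 26 genes were at 0 in both, 12 had 1 to 3 counts summed over both, and 3 had more. These values chose the genes and are given as a description. Of the 41 genes, 40 were called higher in DNK by edgeR's quasi-likelihood test at an adjusted p under 0.05, against 4.22% of the 17151 genes tested, and since the limits used the same contrast nothing is read from this count. *CU929150.1* was not called. In sorted bulk cells, fewer cells of a type and less RNA per cell cannot be told apart.

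**Figure D1:**
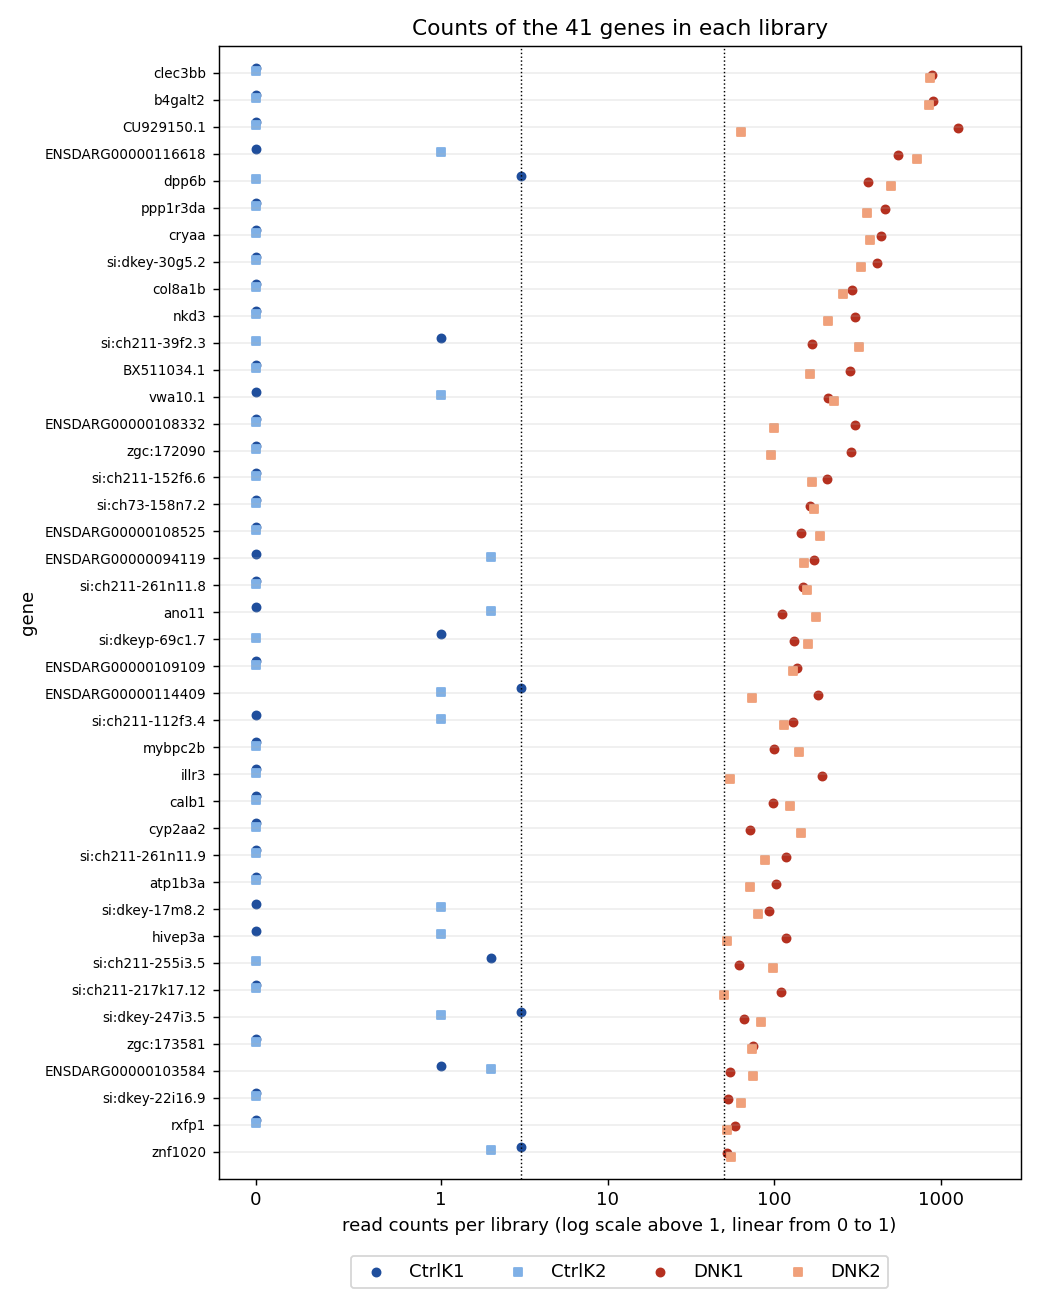
Read counts of the 41 genes (vertical axis) in each of the 4 libraries on a log axis that is linear between 0 and 1; the dotted lines mark 3 and 50 counts, the limits of the choice. All CtrlK points lie at 0 to 3 counts and all DNK points at 50 or more, and the separation of the groups is fixed by the limits; genes are in order of their mean normalised DNK count, which is not corrected for length.

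The genes at the limits show how sharp the choice was. Just inside the lower DNK limit, *si:ch211-217k17.12* had 0 and 0 counts in CtrlK and 110 and 50 in DNK, and *hivep3a* had 0 and 1 against 118 and 52. Just outside it, *zgc:194221* had 0 and 0 against 50 and 49, and *mhc2bl* had 0 and 0 against 48 and 55. At the upper CtrlK limit, *znf1020* was taken with 3 and 2 counts against 52 and 55. *si:dkey-105h11.2* was not taken, with 4 and 0 counts in CtrlK, although it had 1398 and 1649 in DNK, and neither was ENSDARG00000117817, with 4 and 0 against 191 and 140.

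Among the genes for secreted and matrix proteins were *clec3bb* and *col8a1b*. *clec3bb* is a zebrafish counterpart of the gene for tetranectin, a secreted C-type lectin that binds plasminogen in mammals. It had 0 and 0 counts in CtrlK and 885 and 865 in DNK, a normalised count of 847 ± 31.2 (SD, n = 2) and at least 271-fold higher. Such lower bounds set the mean of the DNK libraries against 3 counts in each CtrlK library, the smallest level taken as detectable. They hold for that mean and not for each DNK library. *col8a1b* encodes an alpha chain of collagen VIII, a short-chain collagen of the matrix under endothelia. It had 0 and 0 counts in CtrlK and 294 and 258 in DNK, 267 ± 10.5 normalised (SD, n = 2) and at least 85.4-fold higher. For both genes the DNK libraries lay close together and every CtrlK read count was 0. *vwa10.1*, named for a von Willebrand factor A domain, had 0 and 1 counts against 211 and 229, a ratio of 413 with a 95% exact counting interval of 73.7 to 16344. The interval is wide because it rests on 1 read in CtrlK, and like all such intervals here it covers counting error only. The same counts chose the genes, so the limits required a high ratio. The ratios, intervals and lower bounds are not corrected for this choice and serve as description.

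The genes for enzymes and enzyme regulators showed the same absence of reads in CtrlK. *b4galt2*, a Golgi galactosyltransferase that adds galactose to N-acetylglucosamine, had 0 and 0 counts in CtrlK and 894 and 848 in DNK, at least 270-fold higher. *ppp1r3da*, a subunit that directs protein phosphatase 1 to glycogen, had 0 and 0 against 463 and 362, at least 127-fold higher. *cyp2aa2*, a cytochrome P450 of a subfamily found in a gene cluster in zebrafish, had 0 and 0 against 71 and 144, at least 33.8-fold higher. The DNK libraries differed more for *cyp2aa2* (105 ± 55.5 normalised counts, SD, n = 2) than for *b4galt2* (843 ± 13.2) or *ppp1r3da* (398 ± 48.0). The symbol of *b4galt2* rests on the genes in the rows around it.

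Channel and transporter subunits and receptors formed another group. *dpp6b* is a zebrafish copy of the gene for a peptidase-like protein without peptidase activity that serves as an accessory subunit of Kv4 potassium channels. It had 3 and 0 counts in CtrlK and 364 and 500 in DNK, a ratio of 270 (95% exact counting interval 92.2 to 1313). *atp1b3a*, a beta subunit of the sodium pump, had 0 and 0 counts in CtrlK and 3.53 and 2.62 CPM in DNK, at least 26.8-fold higher. *ano11*, a gene of the anoctamin family of membrane proteins, had 0 and 2 against 111 and 179, a ratio of 136 (95% exact counting interval 37.3 to 1129). *rxfp1*, a relaxin receptor whose symbol also rests on the rows around it, had 0 and 0 against 58 and 52, at least 17.0-fold higher, the lowest of the lower bounds. *illr3*, an immune-related lectin-like receptor, had 0 and 0 against 192 and 54, at least 37.3-fold higher, and its DNK libraries were far apart.

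Regulators of signaling and transcription were also among the 41 genes. *nkd3* belongs to the naked cuticle family, which restrains Wnt signaling by binding Dishevelled. The identifier ENSDARG00000013174 had 0 and 0 counts in CtrlK and 305 and 210 in DNK, at least 79.3-fold higher, whereas the other 3 identifiers with the symbol *nkd3* had at most 1 count in any library. *hivep3a* encodes a large zinc finger protein and had 0 and 1 counts against 118 and 52, a ratio of 159.5 (95% exact counting interval 28.3 to 6337). *znf1020* had the lowest ratio, 20.1 (95% exact counting interval 8.34 to 63.1), with 52 and 55 counts in DNK.

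3 genes are best known from other tissues. *cryaa*, the alpha A crystallin that acts as a chaperone in the lens, had 0 and 0 counts in CtrlK and 436 and 374 in DNK, 391 ± 21.7 normalised (SD, n = 2) and at least 125-fold higher. The other 2 lens markers found, *crygm2d1* and *cryba1b*, were at 0 in all 4 libraries. *mybpc2b*, a fast skeletal form of myosin-binding protein C, had 0 and 0 against 100 and 140, at least 37.4-fold higher. The skeletal muscle markers found, *mybpc2b* among them, together took 0.0520% and 0.0177% of counts in CtrlK and 0.00712% and 0.00121% in DNK. Within the list, *ckma* had 11804 and 4625 counts in CtrlK and 1094 and 129 in DNK, *pvalb1* was at 0 in every library, and *pvalb2* had 2 counts in CtrlK2 and 0 elsewhere. *calb1*, the calcium-binding protein calbindin of neurons and epithelia, had 0 and 0 against 98 and 125, at least 34.7-fold higher. In the neuronal marker list 1 of 5 genes was at 0 throughout, and the list took at most 0.000405% of any library. The other neuronal markers went both ways. *syt1a* had 102 and 53 counts in CtrlK and 7 and 0 in DNK and was not called. *snap25a* had 0 and 0 against 68 and 3, *gap43* 0 and 11 against 0 and 6, and *elavl3* 0 and 0 against 1 and 0.

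Most of the 41 genes had no gene symbol. 18 carried the name of a sequencing clone (43.9%), 6 had no name at all (14.6%) and 17 had a symbol (41.5%). Among the other 12418 genes with at least 50 counts in both DNK libraries, 9.53% had a clone name, 3.12% no name and 87.4% a symbol. For the 52 genes present in CtrlK only the shares were 32.7% clone names, 13.5% without a name and 53.8% symbols. None of the 52 was set aside, whereas the 5 genes set aside from the DNK choice all had symbols. The 41 and the 52 genes were thus not chosen alike, and nothing is read from the gap between their shares. ENSDARG00000116618, which has a clone name, had 0 and 1 counts in CtrlK and 549 and 714 in DNK, a ratio of 1185 (95% exact counting interval 212 to 46847). *si:dkey-30g5.2* had 0 and 0 against 412 and 329, at least 114-fold higher. *BX511034.1* had 0 and 0 against 284 and 163, and *si:ch211-39f2.3* had 1 and 0 against 168 and 320. Over the 26 genes at 0 in both CtrlK libraries, the lower bounds ran from 17.0-fold to 271-fold with a median of 52.1-fold.

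Of the remaining clone-named and unnamed genes, some had DNK libraries close together. *si:ch73-158n7.2* had 0 and 0 counts in CtrlK and 164 and 174 in DNK, and *si:ch211-152f6.6* had 0 and 0 against 207 and 169. *zgc:173581* had 0 and 0 against 75 and 73, at least 22.9-fold higher. Stray CtrlK reads were seen for *si:ch211-112f3.4* (0 and 1 against 130 and 114), *si:dkeyp-69c1.7* (1 and 0 against 132 and 159), *si:dkey-17m8.2* (0 and 1 against 93 and 80) and ENSDARG00000094119 (0 and 2 against 173 and 150). The values of *si:ch211-255i3.5* (2 and 0 against 61 and 98), *si:dkey-247i3.5* (3 and 1 against 66 and 83) and ENSDARG00000103584 (1 and 2 against 54 and 75) were nearer the limits. ENSDARG00000108525 had 0 and 0 against 144 and 188, and *si:dkey-22i16.9* had 0 and 0 against 53 and 63.

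The DNK libraries were compared with each other, since the limits asked only that both reach 50 counts and did not set the difference between them. The CPM was higher in DNK1 for 20 genes and higher in DNK2 for 21, and the median log2 ratio of DNK1 to DNK2 was -0.02. The median absolute log2 ratio was 0.43, against 0.30 among 8166 other genes in the same range of DNK counts. Of the 41 genes, 28 (68.3%) lay within 1.5-fold and 9 (22.0%) were over 2-fold apart, whereas 78.1% of the other genes lay within 1.5-fold and 5.83% were over 2-fold apart. Among genes with a mean of 50 to 200 counts in DNK, 6 of 27 (22.2%) were over 2-fold apart, against 10.2% of 2878 other genes. By these shares the DNK libraries lay farther apart for the 41 genes than for the other genes, which is a description without a test.

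The gene farthest apart was *CU929150.1*, with 1271 counts in DNK1 and 63 in DNK2 and 0 in both CtrlK libraries, a log2 ratio of 4.23. Its mean normalised count of 624 had an SD of 793 (n = 2), so the level in the DNK group is not known from these libraries. *illr3* (log2 ratio 1.72), *zgc:172090* (289 and 95 counts) and ENSDARG00000108332 (304 and 100 counts) were also higher in DNK1. ENSDARG00000114409 had 184 and 73 counts (1.23). *cyp2aa2* (-1.13) and *si:ch211-39f2.3* (-1.04) were the only ones of the 9 that were higher in DNK2. At the other end, ENSDARG00000109109 had 137 and 129 counts, 129 ± 1.34 normalised (SD, n = 2).

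**Figure D2:**
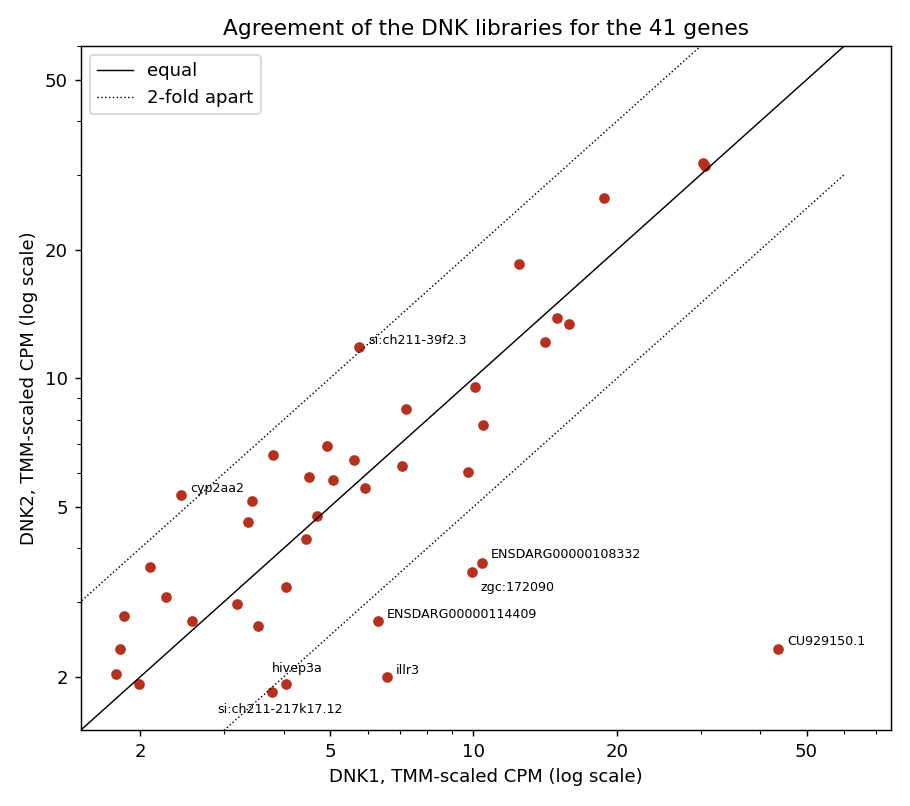
TMM-scaled CPM of the 41 genes in DNK1 (horizontal, log scale) and DNK2 (vertical, log scale); the solid line marks equal values and the dotted lines a 2-fold difference. 9 genes are named outside the dotted lines, 7 of them higher in DNK1, and *CU929150.1* stands farthest away at a log2 ratio of 4.23.

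The rows of the count table follow the order of genes along the chromosomes. Successive rows that could be found in the zebrafish assembly GRCz12tu were paired when they lay at most 10 rows apart. Of 10577 such pairs, 98.9% were on 1 chromosome and 94.5% were within 10 genes of each other. By the names of the rows around them, 37 of the 41 genes could be placed, on 15 chromosomes. Of 19 genes found in GRCz12tu by name and with placed rows around them, 18 had such a row within 20 genes there. The exception was *mybpc2b*, for which 0 of 4 flanking rows lay within 20 genes in GRCz12tu.

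Most of the 41 genes had no other of the 41 within 10 rows. 5 pairs lay within 10 rows of each other and took in 8 genes. How many such pairs other sets of genes form was not counted, so nothing is read from this number. *zgc:172090* and *si:dkey-30g5.2* were in adjacent rows, as were *si:ch211-261n11.8* (0 and 0 against 148 and 156 counts) and *si:ch211-261n11.9* (0 and 0 against 118 and 88). The other 3 pairs formed 1 stretch that ran from ENSDARG00000116618 through ENSDARG00000114409 and ENSDARG00000109109 to ENSDARG00000108332. In that stretch other rows were low in the DNK libraries instead. ENSDARG00000111423, in the row before ENSDARG00000116618, had 695 and 834 counts in CtrlK and 223 and 266 in DNK (log2 difference -1.73, SE 0.22, adjusted p = 0.00516). ENSDARG00000098740, 2 rows before ENSDARG00000109109, had 69 and 137 against 0 and 0, so it was 1 of the genes present in CtrlK only. *si:ch211-213a13.11*, 4 rows after ENSDARG00000108332, had 4 and 20 against 523 and 712 (5.63, SE 0.57, adjusted p = 0.00197). Genes present in 1 group only and genes present in both thus alternated within a few rows.

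Within 10 rows on either side of the 41 genes lay 733 other genes, of which 231 had no read in any library and 344 were tested. The choice of the 41 genes did not use their values. Rows that met the same limits themselves were left out of these neighbours, while rows present in CtrlK only were kept. The shares over all genes include both kinds. Of the 344 neighbours tested, 20 (5.81%) were called higher in DNK and 12 (3.49%) lower, against 4.22% and 4.23% of all 17151 genes. The median log2 difference of the neighbours was 0.02, against -0.02 for all genes. In this fit the share called higher was above that of all genes and the share called lower was below it, and neither difference was tested. Within 5 rows the shares were 7.57% higher and 4.32% lower. With CtrlK1 left out 13 neighbours (3.57%) were called higher, against 2.10% of all genes in the same fit, and with DNK1 left out 13 (3.53%), against 2.25%. Without DNK2 the share was 4.38% against 1.92%. At an adjusted p under 0.01 the share called higher was 3.49% against 1.58%, and 2.62% against 1.30% were lower. The share called lower was also above that of all genes in the fits without CtrlK1, DNK1 or DNK2, and below it without CtrlK2. A called gene lay within 10 rows of 25 of the 41 genes, and 16 had none. For 14 of the 25 the called neighbours were all higher in DNK, for 8 all lower, and 3 had both. How often a called gene lies within 10 rows of other genes was not counted. Some of the 41 genes also share neighbouring rows, so nothing is read from these counts.

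Several neighbours had large differences of their own. *tnfrsf14*, named for a receptor of the tumor necrosis factor receptor superfamily, lay in the row before *si:ch211-261n11.8* and had 3 and 7 counts in CtrlK and 930 and 656 in DNK (log2 difference 7.19, SE 0.40, adjusted p = 0.00019). It was outside the limits by its 7 counts in CtrlK2. *nupr1b*, a transcriptional regulator of the stress response, lay 8 rows before *si:ch211-152f6.6* and had 190 and 219 against 2382 and 2141 (3.37, SE 0.15, adjusted p = 8.83e-05). In between lay *si:dkey-93n13.2*, with 190 and 193 against 1406 and 1215 (2.67, SE 0.20, adjusted p = 0.000624), and *doc2a*, with 0 and 1 against 37 and 55. These 3 genes and *si:ch211-152f6.6* were all higher in both DNK libraries than in either CtrlK library. The other rows between them, *si:dkey-93n13.4*, *si:dkey-93n13.1*, *zgc:66474*, *zgc:66443* and *si:ch211-152f6.7*, were not called.

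3 more called neighbours were clone-named. *si:ch211-66k16.27*, 8 rows after *CU929150.1*, had 12 and 20 counts in CtrlK and 247 and 324 in DNK (log2 difference 4.08, SE 0.46, adjusted p = 0.00291), and its DNK libraries were close together where those of *CU929150.1* were not. *si:dkey-121b10.7*, 5 rows before *si:ch211-217k17.12*, had 21 and 7 against 302 and 257 (4.16, SE 0.63, adjusted p = 0.00955). *si:dkey-199k11.5*, 4 rows after ENSDARG00000108525, was lower in DNK, with 91 and 246 against 13 and 14 (-3.67, SE 0.62, adjusted p = 0.0152).

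Next to *dpp6b* the change ran the opposite way. *si:dkey-193e13.8*, in the row after it, had 2165 and 2237 counts in CtrlK and 40 and 31 in DNK (log2 difference -6.06, SE 0.21, adjusted p = 2.87e-05). ENSDARG00000108939, 3 rows after *si:ch73-158n7.2*, had 714 and 1005 against 0 and 6 (-8.18, SE 0.68, adjusted p = 0.00143). *myo5b*, a myosin motor of vesicle transport 4 rows before *si:dkeyp-69c1.7*, had 84 and 100 against 2 and 0 and was thus the second neighbour present in CtrlK only. *gig2j*, of a family of genes induced by virus in fish, lay on the other side of *si:dkeyp-69c1.7* and had 739 and 1232 against 12 and 66, with an adjusted p of 0.0501 that missed the threshold.

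Other called neighbours had counts in all 4 libraries. *edn1*, the gene of the vasoconstrictor peptide endothelin 1, lay 5 rows after *illr3* and had 839 and 1313 counts in CtrlK and 2293 and 2085 in DNK (log2 difference 0.95, SE 0.16, adjusted p = 0.0134). *abi3bpb*, which encodes an extracellular matrix protein, lay 4 rows before *col8a1b* and had 1498 and 2710 against 7671 and 7476 (1.78, SE 0.18, adjusted p = 0.0024). *serinc2*, next to *hivep3a*, had 2882 and 4368 against 8899 and 8492 (1.19, SE 0.12, adjusted p = 0.00186). *ldb2a*, a LIM domain-binding cofactor 9 rows before *rxfp1*, fell from 2887 and 4368 to 824 and 860 (-2.18, SE 0.15, adjusted p = 0.000465). These neighbours were well counted in both groups, unlike the genes they lay next to.

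**Figure D3:**
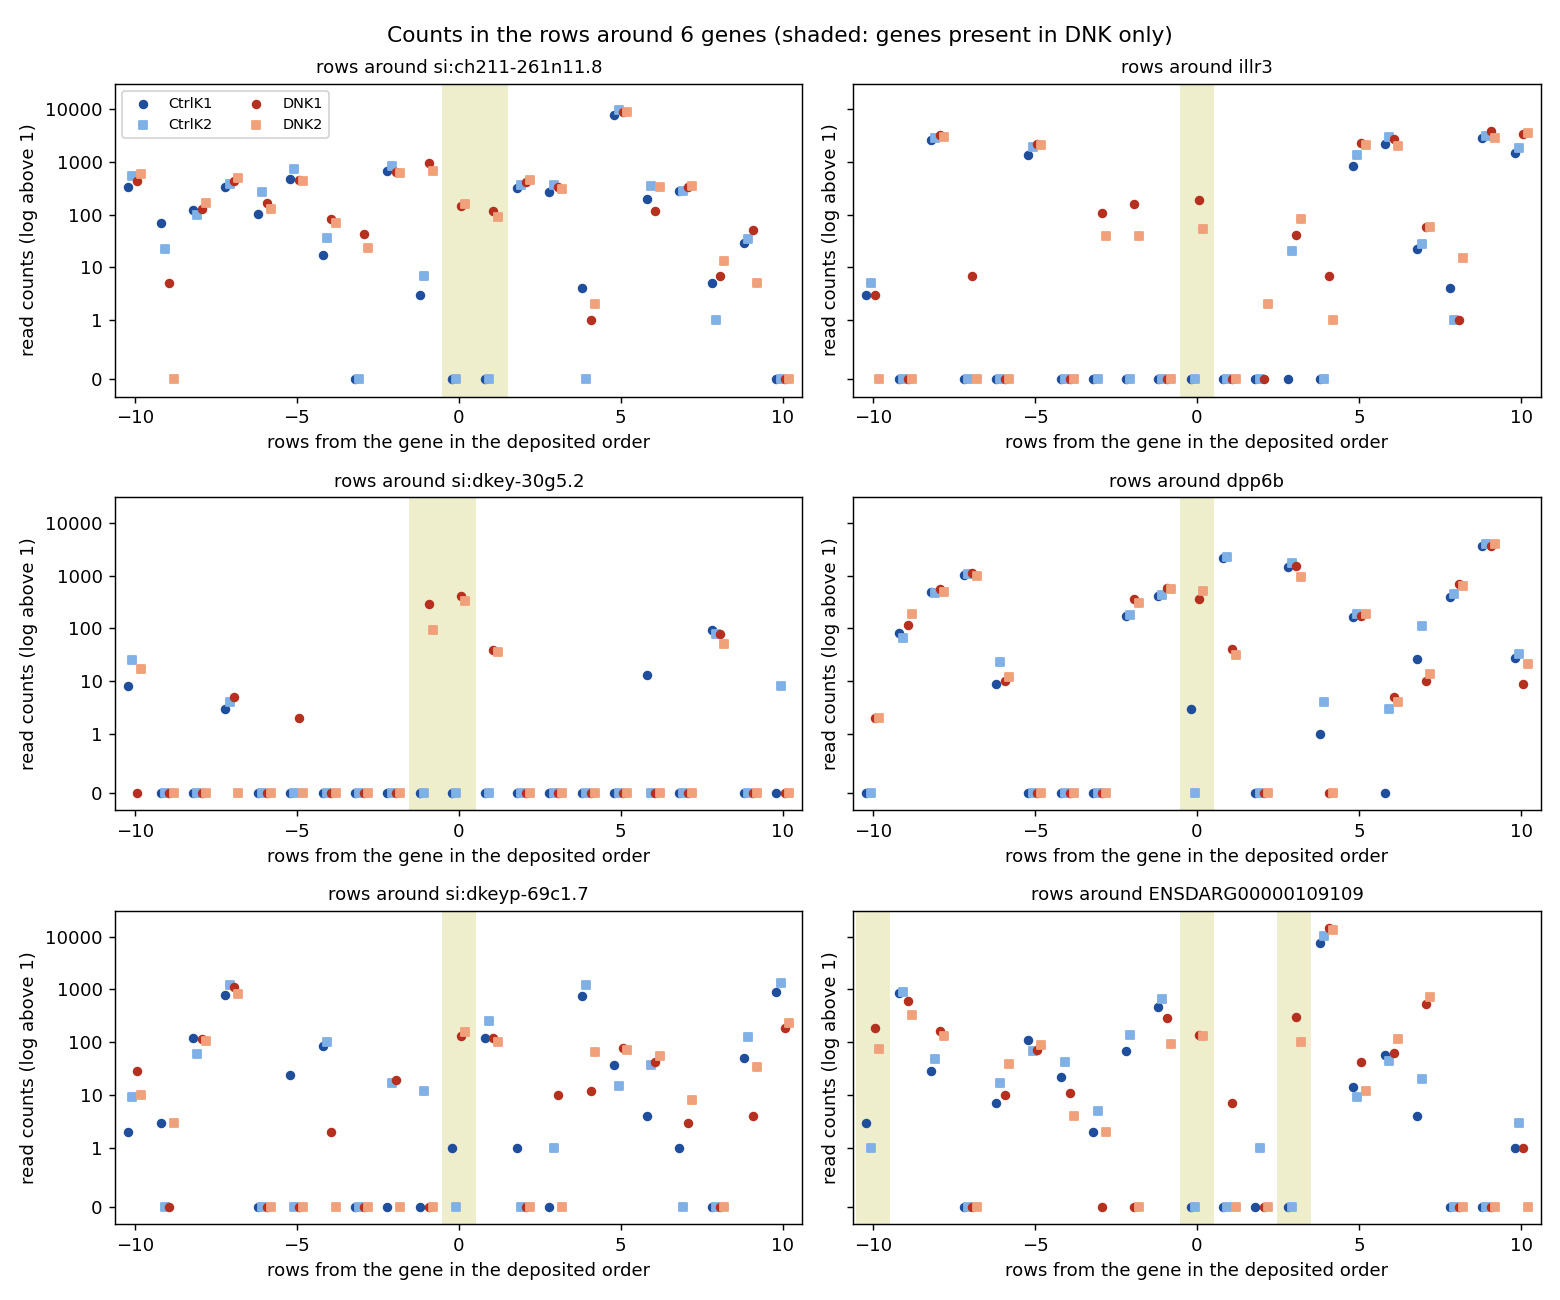
Read counts per library in the 10 rows on either side of 6 genes (horizontal axis: rows from the gene; vertical axis: counts, log scale above 1); the genes present in DNK only are shaded. Rows with reads in DNK alone or nearly so stand beside rows with reads in both groups, and next to *dpp6b* a row has 2165 and 2237 counts in CtrlK against 40 and 31 in DNK.

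Some neighbours were nearly or wholly without reads in CtrlK but stayed under the limit in at least 1 DNK library. 20 genes within 10 rows had at most 3 counts in each CtrlK library and more than 3 in each DNK library. The difference could be small, as for the 5S rRNA gene ENSDARG00000108294 (0 and 3 against 5 and 4). How many other genes had this pattern, or how many neighbours the opposite one, was not counted. The opposite was seen for *si:dkeyp-2g11.1* (29 and 29 against 0 and 0) and *si:ch211-285i13.2* (21 and 37 against 0 and 0). Nothing is therefore read from the number 20. Around *illr3*, *illr1* had 0 and 0 against 108 and 40 counts, and *si:ch211-133n4.12* had 0 and 0 against 161 and 39. These rows were all higher in DNK1 than in DNK2, as *illr3* was. ENSDARG00000113893, beside *si:dkey-30g5.2*, had 0 and 0 against 39 and 35, so that 3 rows in a run had reads in DNK alone. *cyp2aa4*, 5 rows before *cyp2aa2*, had 0 and 0 against 19 and 38, and both were higher in DNK2. *vwa10.2*, next to *vwa10.1*, had 0 and 1 against 4 and 40. A further pair of rows had reads in the second library of each group only. *zgc:194101* and *si:ch211-217k17.10*, 1 row before and 2 rows after *si:ch211-217k17.12*, had 31 and 221 counts in CtrlK2 and 891 and 274 in DNK2 and none in CtrlK1 or DNK1.

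By the start of the symbol, the genes with a symbol fell into 16 groups of names, here called families, which held 501 other genes. Relatedness beyond the name was not checked, so some relatives may share the name alone. Of these relatives 347 were tested, and 13 (3.75%) were called higher in DNK and 8 (2.31%) lower, with a median log2 difference of 0.05. With 1 library left out the calls were fewer among all genes too. Without CtrlK1 6 relatives (1.61%) were called higher against 2.10% of all genes, without CtrlK2 8 (2.12%) against 2.34%, without DNK1 5 (1.33%) against 2.25%, and without DNK2 4 (1.06%) against 1.92%. Without CtrlK1 5 (1.34%) were called lower against 1.80%. Without the zinc finger genes and cytochromes P450, which made up most relatives, 5 of 69 (7.25%) were called higher and 2 (2.90%) lower, against 4.22% and 4.23% of all genes tested. Over the whole list the share called higher was below the background in this fit, without those 2 families it was above it, and neither difference was tested.

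The *dpp6* copies went in opposite directions. *dpp6a* had 1262 and 1931 counts in CtrlK and 363 and 485 in DNK (log2 difference -1.98, SE 0.23, adjusted p = 0.00302), while *dpp6b* had 3 and 0 against 364 and 500. The *mybpc2* copies were both higher in DNK, with *mybpc2a* at 1648 and 1625 against 3529 and 5372 (1.35, SE 0.25, adjusted p = 0.029). Of 4 tested short-chain and multiplexin collagens besides *col8a1b*, 2 rose. *col8a2* rose from 31 and 40 to 158 and 138 (1.97, SE 0.48, adjusted p = 0.0494) and the multiplexin *col15a1b* from 8 and 12 to 295 and 194 (4.50, SE 0.50, adjusted p = 0.00282). *col18a1b*, with 46 and 94 against 13 and 32, and *col10a1b*, with 0 and 23 against 29 and 8, were not called, and *col8a1a* had no read in any library. Some fibroblast markers rose as *col8a2*, *col15a1b* and *abi3bpb* did, and others did not. Together these markers took 0.161% and 0.182% of counts in CtrlK and 0.260% and 0.271% in DNK. *col1a1a*, *col1a2* and *pdgfra* were called higher. *dcn* (11670 and 15251 against 12410 and 12505) and *postnb* (818 and 18 against 1 and 0) were not called, and *lum* had 0 to 11 counts. *pdgfra* had 2299 and 3023 counts in CtrlK and 7087 and 7151 in DNK. Their part in the values of the collagens was not tested. Of the lectins, *clec11a* rose from 43 and 134 to 636 and 648 (2.82, SE 0.44, adjusted p = 0.011), and *clec3ba* had 3 and 2 against 0 and 8.

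Among the zinc finger genes and cytochromes P450, single relatives had large differences in either direction. Of 236 tested zinc finger relatives 4 were called higher and 2 lower, and of 42 tested cytochromes P450 4 were called higher and 4 lower. Over all genes tested the shares were 4.22% and 4.23%. The relatives named here are the called ones with the largest absolute log2 differences. *cyp26b1*, an enzyme that degrades retinoic acid, rose from 307 and 844 counts to 3701 and 4040 (log2 difference 2.71, SE 0.44, adjusted p = 0.0405), and *cyp2ad2* rose from 240 and 238 to 2522 and 2878 (3.40, SE 0.19, adjusted p = 0.000168). *cyp2j20* fell from 463 and 648 to 60 and 25 (-3.80, SE 0.42, adjusted p = 0.0028), and *cyp2p10* had 70 and 161 counts in CtrlK and 0 and 0 in DNK, so it met the opposite limits and was present in CtrlK only. Of the zinc finger genes, *znf1179* had 64 and 25 against 2130 and 2134 (5.44, SE 0.52, adjusted p = 0.00594) and *znf977* had 142 and 183 against 5 and 4 (-5.23, SE 0.59, adjusted p = 0.00302). *znf1028* rose (1.34, SE 0.32, adjusted p = 0.0487) and *znf366* fell (-1.31, SE 0.23, adjusted p = 0.0173).

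For most other genes the relatives did not pass the test. *atp1b3b* had 3791 and 3960 counts in CtrlK and 4965 and 5337 in DNK, with an adjusted p of 0.185. *cyp2aa1* had 1245 and 1115 against 1153 and 1003, and *cyp2aa7* had 1203 and 1358 against 1767 and 1359, so well-counted genes of the cluster that holds *cyp2aa2* were present in both groups. *b4galt3*, with 421 and 473 against 645 and 369, and *b4galt5*, with 572 and 634 against 617 and 453, were detected in both groups, as were *nkd1* (177 and 175 against 172 and 241) and *ppp1r3cb* (1890 and 1585 against 2619 and 2638). *illr4* had 138 and 81 counts in CtrlK and 2 and 42 in DNK and was not called (adjusted p = 0.288), and *illr2* was at 0 throughout. Of the small heat shock proteins related to *cryaa*, *hspb1* was called lower, with 15228 and 14964 against 11055 and 10064 (-0.62, SE 0.11, adjusted p = 0.0183), and *cryaba* had no read. The calbindin relatives *calb2a* and *calb2b* had 1 count among all libraries.

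**Figure D4:**
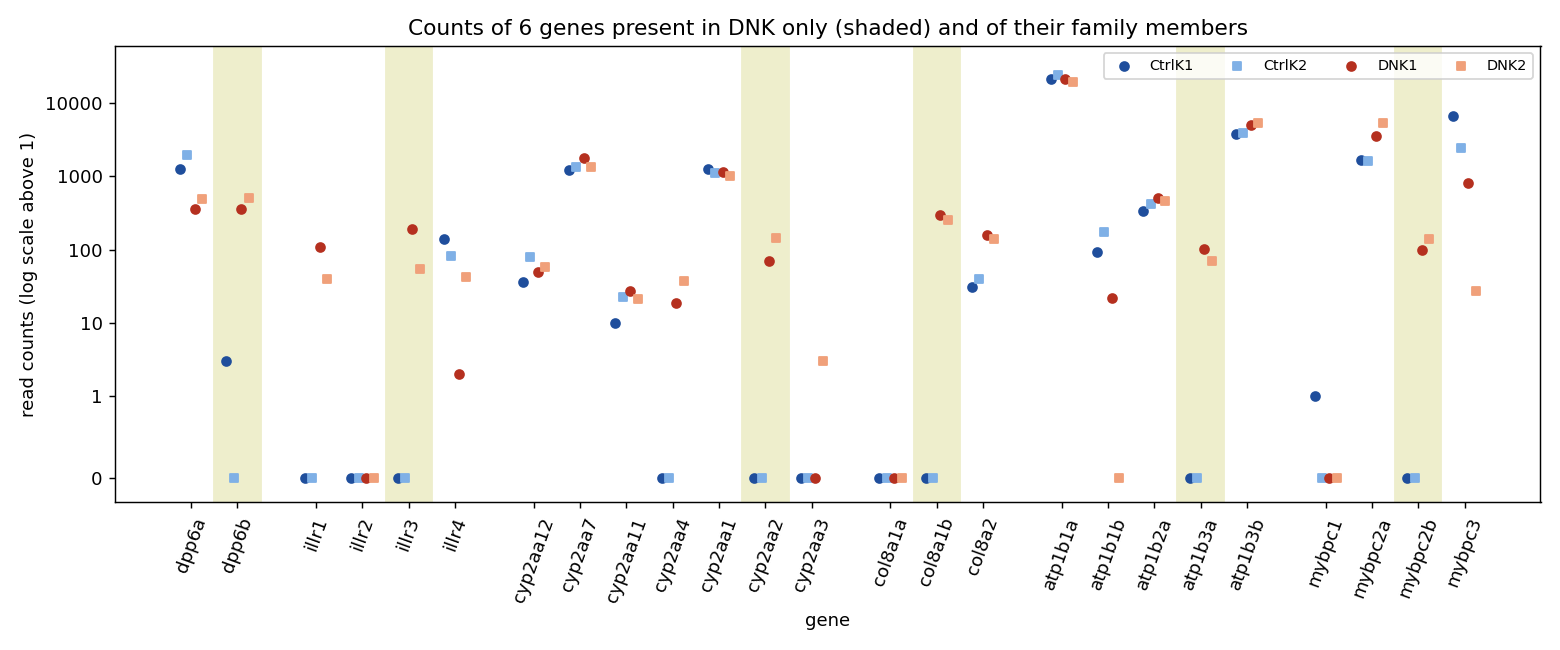
Read counts per library of 6 of the genes (shaded) and of their relatives (vertical axis: counts, log scale above 1). In each family the shaded gene has 0 to 3 counts in CtrlK, while *dpp6a*, *cyp2aa1*, *atp1b3b* and *mybpc2a* have reads in all 4 libraries.

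Zinc finger genes lay around *znf1020*, *si:dkey-247i3.5* and ENSDARG00000094119. In the 60 rows around these 3 genes, 16 were named *znf*. The authors counted only reads that mapped to 1 place, which lowers the counts of near-identical copies, so the values of genes in lectin, zinc finger, cytochrome P450 and other multicopy clusters are uncertain. Whether the counting used strand was not stated, and reads of overlapping genes on opposite strands cannot be told apart.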

How the data were processed

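Cardiac endothelial cells from 2 CtrlK and 2 DNK pools at 7 dpa were profiled by RNA-seq, and samples were grouped by their labels. The authors checked reads with FastQC version 0.11.9, aligned them to GRCz11 with HISAT2 version 2.2.1 and counted uniquely mapped reads on Ensembl genes with featureCounts version 2.0.1, and the deposited values are whole-number counts per gene, neither filtered nor normalized. How strand was treated in counting is not given in the sources used here. Totals were 25189862 to 28770727 counts per library, and intervals and the level of 3 counts cover counting error only.

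The limits of 50 and 3 counts were applied to these counts. The genes and the lists of families and markers were chosen with earlier results of these data known. Genes passing filterByExpr (17151) were tested with edgeR version 4.0.16 (TMM, glmQLFit, glmQLFTest, two-sided, group only, Benjamini-Hochberg) in R version 4.3.3. The SE is the log2 difference divided by the square root of F. Normalised counts are counts divided by the TMM-adjusted library size and multiplied by the mean total count of the libraries. DESeq2 version 1.42.0 was an alternative, as were other normalizations, filters, limits and row distances, and each library left out. Ratios with 1 to 5 CtrlK counts have exact conditional binomial intervals at 95%, not corrected for the choice of genes by these counts. Python version 3.11.15, NumPy version 2.4.6, pandas version 2.3.3, SciPy version 1.17.1 and Matplotlib version 3.10.9 were used. p-values set the difference between the groups against a spread estimated from 2 pools per group, with information shared across genes.

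Identifiers were paired with symbols through an identifier table, the names in a supplementary list of the study, and, where the table gave a human-style symbol, the neighbouring rows and gene names of GRCz12tu. For the 41 genes these gave 25, 8 and 2 names. Where a gene had both, the name from neighbours was the same for 95.0% of 1061 genes. Coordinates and sequences are not given. The text names the chosen genes, the 10 called neighbours (mean of at least 50 counts) and at most 4 called relatives per family with the largest absolute log2 differences, and further neighbours and relatives picked after their values were seen to describe each locus or family.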

Additional observations from a re-analysis of the deposited data

How the results depend on the processing

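The number of genes depended on the limits. It was 96 with at least 20 counts in both DNK libraries, 23 with at least 100, 26 with 0 counts in both CtrlK libraries and 72 with at most 10, against 41. With at most 1 CtrlK count it was 33, and with scaled counts 36. The limits applied to 3 of the libraries gave 58 to 68 genes. Among the neighbours (20 higher, 12 lower), DESeq2 called 27 lower (7.85%). No filter on low counts gave 31 higher (6.2%) and 31 lower (6.2%). An adjusted p under 0.01 gave 12 higher (3.49% against 1.58% of all genes). The distance of 20 rows on each side gave 32 higher (4.78%) and 30 lower (4.48%), and 5 rows gave 14 higher (7.57%) and 8 lower (4.32%). Leaving out single libraries gave 13 to 16 higher and 8 to 18 lower. The background moved as well, to 7.41% higher and 8.35% lower with DESeq2 and to 5.44% and 7.35% without the filter. Among the relatives (13 higher, 8 lower), DESeq2 called 28 higher (8.07%) and 19 lower (5.48%), and single libraries left out gave 4 to 8 and 5 to 10. Of 76 tested markers, 14 (18.4%) were called lower, and 28 (36.8%) with DESeq2. Neighbours present in CtrlK only numbered 7 within 20 rows and 5 with limits of 20 and 3 counts, against 2. Without the stretch of 4 genes, chosen after seeing the data, 18 neighbours (5.56%) were higher and 9 (2.78%) lower. The cause of these differences was not tested.

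A replicate block gave 19 higher (5.52%) and 15 lower (4.36%) neighbours. It gave 11 higher (3.17%) and 11 lower (3.17%) relatives. Of all genes in the same fit, 4.36% were higher and 5.22% lower. The deviations of equally numbered libraries correlated at 0.111, over 2 pairs of different fish, too few to show whether equal numbers share a batch. Cardiomyocyte markers took a smaller share in the second library of both groups (1.76% and 0.611% in CtrlK, 0.223% and 0.0746% in DNK). The numbers were not taken to pair the samples, because the study's methods describe no pairing. Counts per kilobase of coding sequence were not run, so counts of different genes are not ranked as expression levels.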
